A study of Mus musculus with 12 samples.

Results

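The genes described here make sterols and fatty acids. They are 33 mouse genes: 18 sterol synthesis enzymes, 6 genes of the SREBP control circuit and of sterol transport, and 9 genes of fatty acid synthesis and desaturation. Members were taken by name from the pathways, and a probe on the array counted for a member where the RefSeq accession in the scanner file maps to its symbol. Of the 33 genes 32 were measured, among 12300 genes tested and 17178 genes with a named probe. Idi1, an isomerase early in the sterol pathway, had no probe named in this way. All 32 measured genes were well above background on all 12 arrays, so the filter on dim probes removed none of them.

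The arrays measured RNA of C3H/10T1/2, an embryonic fibroblast line of the mouse that MyoD can turn into skeletal muscle. All cells carried a stable hairpin, either shSix4 against the homeobox factor Six4 or the control hairpin shLuc. Both lines then received a pBABE retrovirus, either empty or carrying MyoD with Flag and myc tags. After 24 h the medium was changed from 10% fetal serum to 2% horse serum for a further 24 h. The groups, with 3 arrays each, were thus shLuc with empty vector, shLuc with MyoD, shSix4 with empty vector and shSix4 with MyoD. The labels name 1 hairpin line of each kind and do not say whether the replicates were separate cultures. P-values therefore cover only the spread among these arrays, and that may be technical. Each replicate number was 1 slide that held 1 array of every group. Number 1 was scanned on a day of its own and numbers 2 and 3 on another day. Number and slide therefore cannot be told apart, and scan day cannot be told apart from number 1 against the others.

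Cells build cholesterol from acetyl-CoA through mevalonate, farnesyl diphosphate, squalene and lanosterol, and fatty acids from the same acetyl-CoA through malonyl-CoA. Both arms are switched on by SREBP transcription factors, Srebf2 mainly for sterol enzymes and Srebf1 mainly for fatty acid enzymes. When sterols are scarce, Scap carries the SREBP precursor to the Golgi for cleavage. When sterols are plentiful, Insig1 and Insig2 hold it back. SREBP factors act at sterol response elements, usually beside CCAAT boxes bound by the factor NF-Y. Dividing cells and fusing myoblasts need both products for new membrane.

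Promoter windows from RefSeq (build GRCm38.p6, 250 bases before to 50 after the start site) were found for 26 of the 33 genes. They were not found for Fdps, Fdft1, Sqle, Stard4, Scd1, Scd2 and Fads1. Both strands were searched for a sterol response element written TCACNCCAC, the CCAAT box, the E-box CAGCTG that MyoD binds and the MEF3 site TCAGGTT, to which the family of Six4 binds. The windows below are shown because they bear the CCAAT boxes of the genes on which the results turn: Hmgcs1 is the member whose window holds the sterol response element, Mvk and Lss had the highest F for replicate number among the sterol enzymes, Fasn ran opposite to them, and Dhcr7 passed the test for MyoD. Capitals mark CCAAT boxes, which read ATTGG on the other strand, and in Hmgcs1 also the element TCACCCCAC. In Fasn the capital run of 8 letters is 2 overlapping boxes, 1 on each strand.
Hmgcs1 chr13:119690101-119690400 plus strand: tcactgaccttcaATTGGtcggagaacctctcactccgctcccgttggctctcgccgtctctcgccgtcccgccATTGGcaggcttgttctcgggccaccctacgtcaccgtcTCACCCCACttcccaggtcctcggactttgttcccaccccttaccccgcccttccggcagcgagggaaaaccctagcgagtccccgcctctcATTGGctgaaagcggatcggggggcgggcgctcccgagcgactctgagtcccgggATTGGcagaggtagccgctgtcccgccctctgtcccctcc
Mvk chr5:114444019-114444318 plus strand: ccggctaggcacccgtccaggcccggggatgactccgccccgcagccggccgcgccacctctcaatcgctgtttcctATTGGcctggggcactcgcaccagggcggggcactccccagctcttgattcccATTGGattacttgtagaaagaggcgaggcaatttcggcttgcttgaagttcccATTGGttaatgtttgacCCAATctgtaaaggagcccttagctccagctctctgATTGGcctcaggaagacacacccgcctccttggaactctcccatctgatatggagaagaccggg
Lss chr10:76531355-76531654 plus strand: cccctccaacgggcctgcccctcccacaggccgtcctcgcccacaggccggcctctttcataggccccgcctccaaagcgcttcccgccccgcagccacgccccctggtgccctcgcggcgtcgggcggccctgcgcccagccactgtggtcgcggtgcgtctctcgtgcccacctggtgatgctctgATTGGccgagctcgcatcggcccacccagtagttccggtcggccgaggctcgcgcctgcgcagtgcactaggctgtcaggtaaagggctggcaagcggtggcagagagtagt
Fasn chr11:120824498-120824797 minus strand: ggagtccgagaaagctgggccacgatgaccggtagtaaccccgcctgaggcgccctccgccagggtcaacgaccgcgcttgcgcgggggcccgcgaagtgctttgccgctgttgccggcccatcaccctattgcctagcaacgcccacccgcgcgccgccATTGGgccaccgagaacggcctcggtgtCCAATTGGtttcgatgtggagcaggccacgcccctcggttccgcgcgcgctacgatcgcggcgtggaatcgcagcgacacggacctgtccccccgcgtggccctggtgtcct
Dhcr7 chr7:143829964-143830263 plus strand: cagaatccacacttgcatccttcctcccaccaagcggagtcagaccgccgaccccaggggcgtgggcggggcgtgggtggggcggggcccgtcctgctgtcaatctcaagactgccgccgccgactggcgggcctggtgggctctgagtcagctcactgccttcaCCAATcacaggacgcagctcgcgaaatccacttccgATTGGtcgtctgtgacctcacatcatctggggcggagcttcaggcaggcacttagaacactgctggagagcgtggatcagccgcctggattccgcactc

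CCAAT boxes stood in the windows of 21 of the 26 genes, against 41.1% of all 27025 genes with a window. By arm they stood in 14 of 15 sterol genes, 4 of 5 control genes and 3 of 6 fatty acid genes. The Mvk window held 5 boxes, that of Hmgcs1 4 and that of Lss 1. The sterol response element in these letters was in 1 of 26 windows, in Hmgcs1 at position -137 from the start site, against 1.44% of all genes. The MyoD E-box was in 4 of 26 genes (Idi1, Msmo1, Dhcr7 and Insig2), against 18.3% of all genes. The MEF3 site was in Pmvk and Dhcr7, against 4.73% of all genes. In Dhcr7 the E-box and a MEF3 site lie in another of its windows, chr7:143823149-143823448, which holds no CCAAT box. These matches describe letters in a window of fixed length and say nothing of binding.

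Per array, 22318 to 27448 of the 41174 probes passed the scanner's test against background. Six4 itself measured lower in shSix4 than in shLuc cells, but not past the threshold: it differed on the log2 scale by -1.17 ± 0.49 (SE) in cells given MyoD (adjusted p = 0.558; 0.0424 when the replicate number was a block) and by -0.92 ± 0.49 in those given the empty vector (0.999; block 0.168). Myod1 was higher in cells given MyoD by 4.03 ± 0.90 in shLuc (adjusted p = 0.0315), and by 2.10 ± 0.90 in shSix4, which did not pass (adjusted p = 0.482). All 10 skeletal muscle markers and all 11 fibroblast markers were measured. Not among the genes tested were 6 of 12 adipocyte markers (Adipoq, Plin1, Cidec, Cfd, Lep and Retn) and all 4 hepatocyte markers, of which 3 had a named probe. The other 6 adipocyte markers (Fabp4, Pparg, Cebpa, Plin4, Lpl and Cd36) were measured. Levels below are log2 of the processed signal relative to the 75th percentile of the same array. They compare arrays for 1 gene and not genes with each other. Differences are log2 differences with the limma standard error (SE), p-values are adjusted over 12300 genes unless stated otherwise, and called means an adjusted p under 0.05. Of the 6 measured adipocyte markers, MyoD in shLuc cells called 2 higher and 1 lower (differences from -1.65 to 3.68), against 6.28% of all genes. In shSix4 cells 1 was called higher, against 2.89%. With the block 2 were called higher and 2 lower in each line. The share of all genes called was then 25.6% in shLuc and 8.30% in shSix4 cells. By replicate number all 6 were called, 3 higher and 3 lower on numbers 2 and 3, against 57.2%. The part of that list in the values of the members was not tested.

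**Figure D1:**
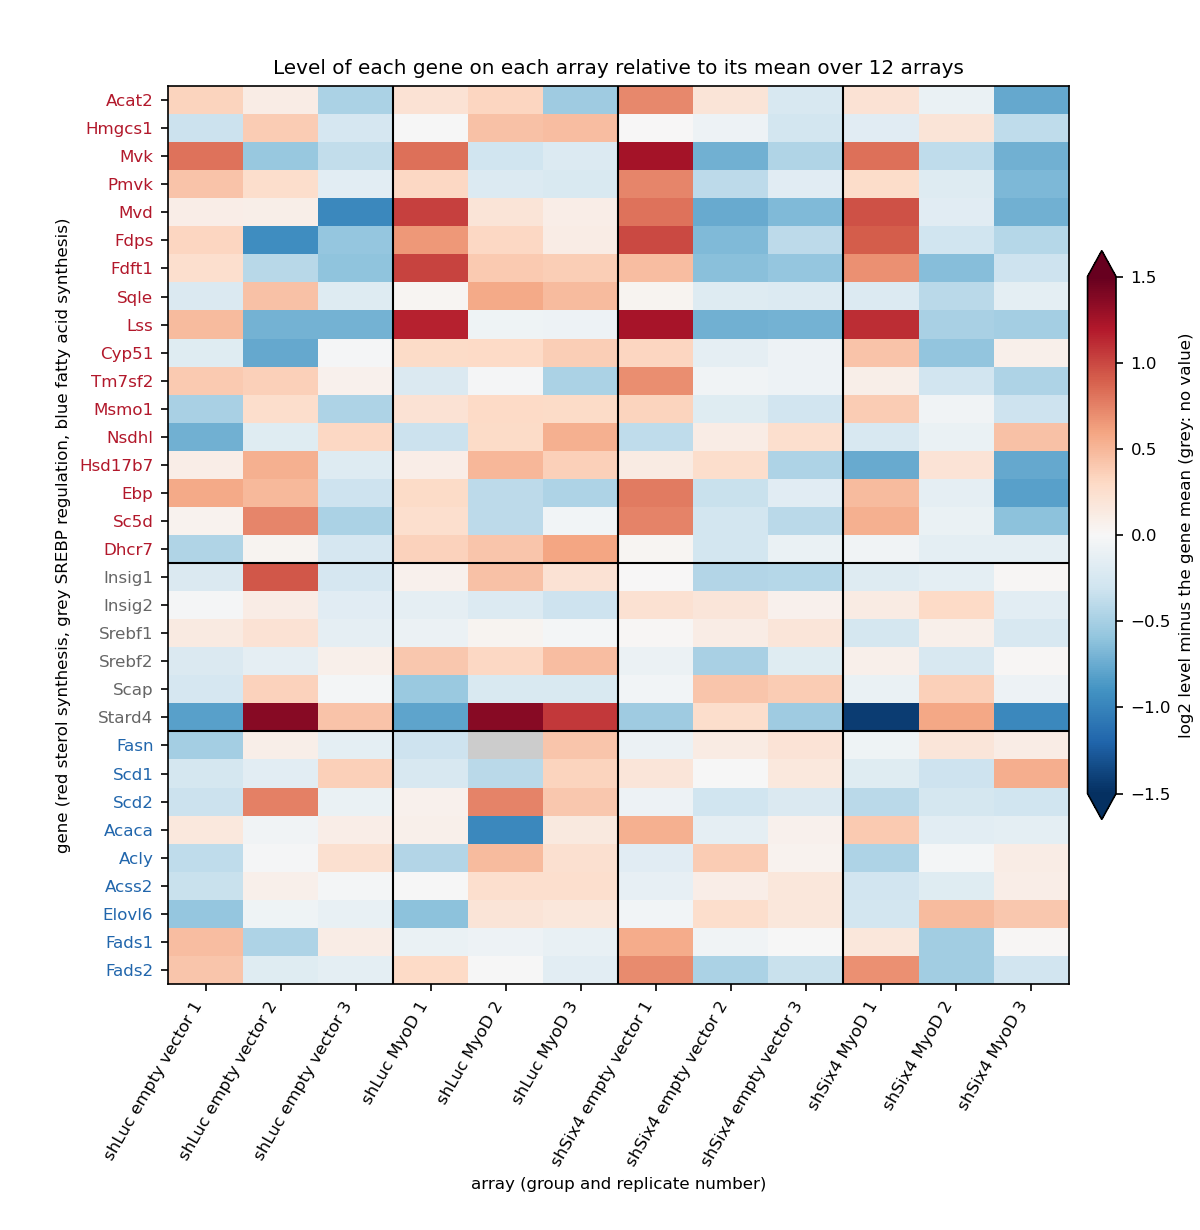
Level of each of 32 genes on each of 12 arrays, as the colour of log2 level minus the mean of that gene over its arrays; rows are genes in pathway order, columns are arrays by group and replicate number. In the sterol rows the number 1 arrays of all 4 groups are red for Mvk, Fdps, Fdft1 and Lss, and in the row of Acly they are blue. In the row of Elovl6 they are below the mean, but shSix4 with empty vector is nearly white (2.59 against a mean of 2.63).

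MyoD in shLuc cells went with higher sterol enzyme RNA, of which only Dhcr7 passed the threshold in the fit that leaves out the replicate number. Of 17 sterol enzymes measured, 13 had a difference above 0, and their median was 0.36 when the median of all genes was -0.14. Dhcr7, the reductase that makes cholesterol in the last step, rose by 0.67 ± 0.18 or 1.59-fold (adjusted p = 0.0465). The fatty acid arm had a median of 0.15, with 6 of 9 above 0 and none called. The control genes had a median of -0.0066, with 3 of 6 above 0 and none called. The one call among 32 members is 1 of 772 among all genes, or 6.28% (4.72% higher and 1.56% lower). In this fit, which leaves out the replicate number, the share of members called thus lies below the background. Above 0 stood 22 of 32 members and 35.1% of all genes. At an unadjusted p under 0.05 were 3 members (Cyp51, Dhcr7 and Srebf2) and 19.3% of all genes.

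With the replicate number as a block, 6 members were called and all were higher: Fdps, Fdft1, Lss, Cyp51, Dhcr7 and Srebf2. They are 18.8% of the 32 members, and 5 of them are among the 17 sterol enzymes (29.4%). In that fit 9.89% of all genes were called higher, 15.7% lower and 25.6% in either direction. The share of members thus lies above that of all genes called higher and below that of all genes called in either direction. Fdft1, squalene synthase and the first enzyme committed to sterols, measured 3.08, 2.41 and 2.22 on numbers 1, 2 and 3 with empty vector and 3.84, 3.22 and 3.19 with MyoD. Every MyoD array lay above every empty vector array. Its difference was 0.85 ± 0.40, the highest of the sterol arm (adjusted p = 0.285, block 0.00423). Dhcr7 measured 2.19, 2.69 and 2.39 with empty vector and 2.99, 3.07 and 3.25 with MyoD, again without overlap. Its adjusted p in the block fit was 0.0137.

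Lss, which closes the sterol rings to lanosterol, measured 1.12, -0.07 and -0.06 with empty vector and 1.80, 0.58 and 0.57 with MyoD. The groups overlapped, because number 1 was high in both, but within each number the MyoD array was higher, by 0.68, 0.65 and 0.63. The difference was 0.65 ± 0.63 without the block (adjusted p = 0.646) and passed with it (0.0207). Fdps, farnesyl diphosphate synthase, had differences of 0.33, 1.24 and 0.69 within numbers (mean 0.75 ± 0.49, adjusted p = 0.463, block 0.033). The order within slides was thus the same for these enzymes on all 3 slides.

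Cyp51, the lanosterol demethylase, measured 1.12, 0.53 and 1.28 with empty vector and 1.59, 1.59 and 1.66 with MyoD, without overlap. It differed by 0.64 ± 0.28 (adjusted p = 0.241, block 0.0403). Srebf2, which encodes the SREBP of the sterol arm, measured 1.04, 1.13 and 1.34 with empty vector and 1.66, 1.57 and 1.72 with MyoD, also without overlap. It differed by 0.48 ± 0.17 (adjusted p = 0.146, block 0.0207) and was the highest of the control genes. Groups that did not overlap with MyoD higher were found for 4 members (Fdft1, Cyp51, Dhcr7 and Srebf2) and for 10.2% of all genes.

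Among the other sterol enzymes Mvd, which makes isopentenyl diphosphate, differed by 0.70 ± 0.53, Msmo1, a sterol methyl oxidase, by 0.50 ± 0.26, and Hmgcs1, HMG-CoA synthase, by 0.36 ± 0.24. Nsdhl, a sterol dehydrogenase, differed by 0.36 ± 0.32 and Sqle, the squalene epoxidase, by 0.34 ± 0.22. None of these 5 was called in either fit, yet in each of them all 3 within-number differences were above 0. In all, 11 of 17 sterol enzymes, 2 of 6 control genes and 1 of the 8 fatty acid genes with a value on every array were higher within all 3 numbers, against 19.5% of all genes. Lower within all 3 numbers were 5 members (Pmvk, Tm7sf2, Ebp, Insig2 and Scap), against 40.7%.

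Some enzymes of the sterol arm went the other way. Tm7sf2, a sterol reductase, measured 3.92, 3.88 and 3.59 with empty vector and 3.31, 3.51 and 3.05 with MyoD. The groups did not overlap, and the difference was -0.51 ± 0.25, the lowest of the arm (adjusted p = 0.298, block 0.052). Ebp, the sterol isomerase, differed by -0.44 ± 0.40 and Pmvk, a mevalonate pathway kinase, by -0.21 ± 0.33. Lower in MyoD without overlap was 1 member, against 16.0% of all genes. The remaining sterol enzymes, Acat2, Mvk, Hsd17b7 and Sc5d, differed by -0.16 to 0.17.

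In the fatty acid arm the differences in shLuc cells ran from -0.32 ± 0.31 for Acaca, the carboxylase that makes malonyl-CoA, to 0.29 ± 0.27 for the desaturase Scd2. Acss2, which makes acetyl-CoA from acetate, was the gene with all 3 within-number differences above 0 (0.33, 0.17 and 0.28; 0.26 ± 0.18, adjusted p = 0.499). Fasn, fatty acid synthase, differed by 0.24 ± 0.26 over 5 arrays, since its spot on the number 2 MyoD array bore an outlier mark and was left out. Scap, the SREBP escort, was the lowest control gene at -0.36 ± 0.22 (adjusted p = 0.437, block 0.0633). For scale, the 10 muscle markers had a median difference of 9.18 in shLuc and 8.31 in shSix4 cells, with 9 called in each and 10 with the block. The 11 fibroblast markers were all below 0 in shLuc cells (median -0.49, 0 called and 5 with the block). The part of either list in the sterol values was not tested.

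**Figure D2:**
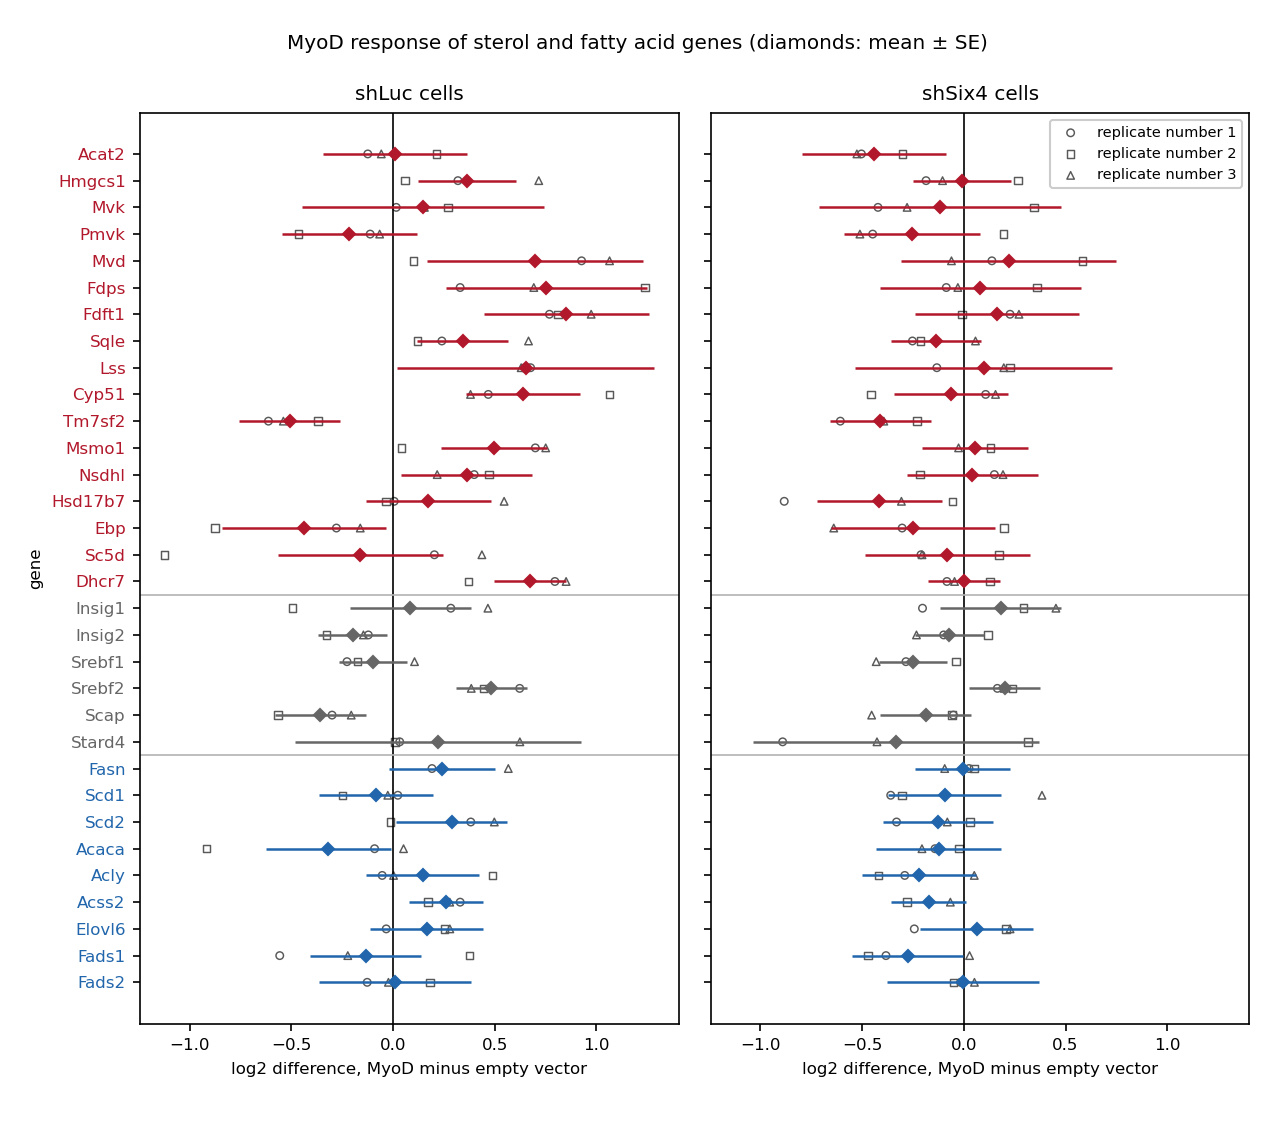
Log2 difference between MyoD and empty vector for each gene in shLuc cells (left) and shSix4 cells (right); diamonds and bars are the mean ± SE from limma, open symbols the difference within each replicate number. In shLuc cells the 3 symbols of Fdft1, Lss, Cyp51 and Dhcr7 all lie right of 0, and in shSix4 cells the diamond of Dhcr7 lies on 0.

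In shSix4 cells MyoD moved no member past the threshold in either fit, and 0 members had an unadjusted p under 0.05, against 9.77% of all genes. Called were 356 genes or 2.89% of all (2.79% higher), and with the block 8.30% (5.70% higher). The sterol median was -0.065 with 7 of 17 above 0, the control median -0.13 and the fatty acid median -0.12 with 1 of 9 above 0, beside -0.058 for all genes, of which 42.0% were above 0. Dhcr7 measured 2.68, 2.37 and 2.54 with empty vector and 2.60, 2.50 and 2.50 with MyoD. The difference was 0.00033 ± 0.18 with a 95% interval from -0.39 to 0.39.

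Fdft1 in shSix4 cells measured 3.29, 2.20 and 2.25 with empty vector and 3.51, 2.19 and 2.52 with MyoD, a difference of 0.16 ± 0.40. Lss measured 1.89, -0.07 and -0.06 against 1.75, 0.15 and 0.13, a difference of 0.097 ± 0.63. In both genes number 1 stood far above the other numbers whatever the vector. The extremes of the sterol arm were Mvd at 0.22 ± 0.53 and Acat2, the cytosolic thiolase at the head of the pathway, at -0.44 ± 0.35. Acat2 measured -0.67, -1.19 and -1.63 with empty vector and -1.17, -1.49 and -2.15 with MyoD, lower within every number (adjusted p = 0.877, block 0.0741).

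Srebf2 was the single member above 0 within all 3 numbers in shSix4 cells (0.16, 0.24 and 0.20; 0.20 ± 0.17), against 20.1% of all genes. Lower within all 3 numbers were 7 members (Acat2, Tm7sf2, Hsd17b7, Srebf1, Scap, Acaca and Acss2), against 30.3% of all genes. The lowest control gene was Stard4, a cholesterol carrier, at -0.33 ± 0.70. Among fatty acid genes Elovl6, an elongase, was highest at 0.063 ± 0.28, and Fads1, a desaturase of polyunsaturated fatty acids, lowest at -0.28 ± 0.27. No member had groups without overlap in this comparison, where 7.19% of all genes did so higher and 7.39% lower.

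In cells given MyoD no member was called between the shSix4 and shLuc lines, and most sterol enzymes had values below 0. The sterol median was -0.30 with 2 of 17 above 0, the control median -0.23 and the fatty acid median -0.013 with 4 of 9 above 0. The median of all genes was 0.029, with 54.4% above 0. Within numbers 1, 2 and 3 the sterol median was -6.5e-05, -0.36 and -0.54, near 0 on number 1. It was -0.058 without the number 3 array of shSix4 with MyoD, -0.58 without number 1 of that group and -0.16 without number 2. Without the number 1 array of shLuc with MyoD it was -0.15. Of 32 members 0 were called, and 28 genes or 0.228% of all were (0.0650% higher and 0.163% lower). At an unadjusted p under 0.05 there were 5 members, Sqle, Hsd17b7, Dhcr7, Srebf2 and Scd2, or 15.6% of members against 7.80% of all genes. With the block Fdft1 alone was called, lower by -0.68 ± 0.40 in the fit without it (adjusted p = 0.859, block 0.0392), against 4.33% of all genes (2.59% lower). This comparison and that of MyoD in shLuc cells share the shLuc MyoD arrays.

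Sqle with MyoD measured 3.71, 4.25 and 4.16 for shLuc against 3.48, 3.28 and 3.54 for shSix4, a difference of -0.61 ± 0.22 (adjusted p = 0.445). Dhcr7 measured 2.99, 3.07 and 3.25 against 2.60, 2.50 and 2.50, a difference of -0.57 ± 0.18 (adjusted p = 0.283). Srebf2 differed by -0.45 ± 0.17 (adjusted p = 0.493), at 1.66, 1.57 and 1.72 for shLuc against 1.34, 1.01 and 1.27 for shSix4. In all 3 genes every shSix4 array lay below every shLuc array, which held for 5 members, with Insig1 and Scd2, and for 6.09% of all genes. Hsd17b7, a sterol ketone reductase, was the lowest of its arm at -0.76 ± 0.31 with 2.01, 2.40 and 2.26 against 1.15, 2.11 and 1.14, and its groups overlapped (adjusted p = 0.533, block 0.0572). Ebp was the highest of the arm at 0.032 ± 0.40.

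Of the control genes with MyoD, Scap was higher in shSix4 cells without overlap (4.47, 4.93 and 4.50 against 4.01, 4.34 and 4.33; 0.40 ± 0.22, adjusted p = 0.822), which 6.0% of all genes were. Stard4 had the lowest value, -1.15 ± 0.70, with 0.18, 2.19 and 0.64 in shSix4 against 0.82, 2.97 and 2.66 in shLuc cells. These values are from its brightest probe, and its dimmer probes gave smaller differences of -0.38 and -0.23. On the brightest probe the Stard4 arrays of number 2 stood above those of number 1 in both lines. Acaca was the highest fatty acid gene at 0.28 ± 0.31. Proliferation markers were all lower in shSix4 than in shLuc cells with MyoD (10 of 10, median -0.74, none called). The array means of that list lay between 2.72 and 2.86 for shLuc and between 1.48 and 3.04 for shSix4. The muscle markers were likewise lower in 10 of 10 (median -1.60, 1 called and 5 with the block). The part of either list in the sterol values was not tested.

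With the empty vector the lines gave no call among members (0 of 32, and 0 with the block), where 0.0569% of all genes were called (0.00813% higher and 0.0488% lower), and no member had an unadjusted p under 0.05 (4.45% of all genes). The sterol median was 0.058 with 10 of 17 above 0, the control median -0.065 and the fatty acid median 0.14 with 7 of 9 above 0, beside -0.025 for all genes, of which 45.9% were above 0. Elovl6 measured 2.59, 2.89 and 2.80 in shSix4 and 2.05, 2.56 and 2.52 in shLuc cells. It was the member without overlap, at 0.38 ± 0.28 (adjusted p = 0.999), and 3.30% of all genes were higher and 5.07% lower without overlap. The sterol arm ran from -0.17 ± 0.31 for Hsd17b7 to 0.37 ± 0.49 for Fdps. Scap was the highest control gene at 0.23 ± 0.22 and Stard4 the lowest at -0.59 ± 0.70, while the dimmer probes of Stard4 gave -0.066 and 0.14. Scd2 was the lowest fatty acid gene at -0.31 ± 0.27. Proliferation markers were below 0 in 10 of 10 here too (median -1.02, none called, 4 with an unadjusted p under 0.05), and the part of that list was not tested.

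The MyoD response itself was compared between the lines as an interaction. The sterol median of that difference, shSix4 minus shLuc, was -0.45 with 3 of 17 above 0, beside 0.073 for all genes, of which 61.2% were above 0. The control median was -0.028 and the fatty acid median -0.14. No gene of the array was called by limma (0 of 12300, 0%, in either fit), while 249 genes or 2.02% had an unadjusted p under 0.05. Dhcr7 was the member among those, at -0.67 ± 0.25 (unadjusted p = 0.0207, adjusted p = 0.9999), with -0.88, -0.24 and -0.90 within numbers. Cyp51 had the lowest value, -0.70 ± 0.40. Below 0 within all 3 numbers were 9 of 17 sterol enzymes, Srebf2, Acss2 and Elovl6, against 10.9% of all genes. The difference between the lines in the response of the sterol arm was thus not called for any enzyme.

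Set side by side on single arrays, the arms kept no fixed order. In shLuc cells with MyoD the sterol median, taken over genes as level minus gene mean, was 0.29, 0.30 and 0.12 on numbers 1, 2 and 3, and on each of these arrays it lay above the median of all genes. Without MyoD the same line gave 0.10, 0.11 and -0.30. In shSix4 cells it was 0.70, -0.27 and -0.27 with empty vector and 0.38, -0.17 and -0.47 with MyoD. The fatty acid median in shLuc cells was -0.32, -0.056 and -0.025 with empty vector and -0.099, 0.094 and 0.24 with MyoD. In shSix4 cells it was -0.037, -0.0060 and 0.061 with empty vector and -0.18, -0.18 and 0.099 with MyoD. The sterol arm was highest on number 1 in both shSix4 groups, and the fatty acid arm was lowest or nearly lowest on number 1 in all 4 groups.

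**Figure D3:**
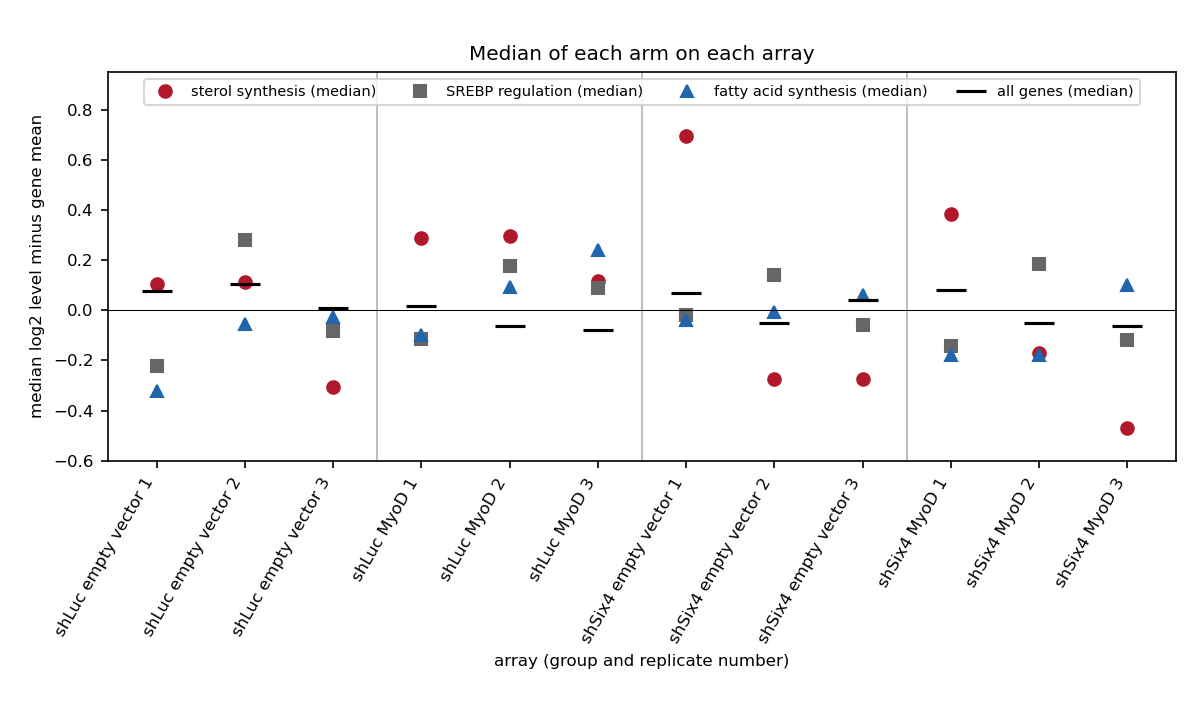
Median over the genes of each arm of the log2 level minus the gene mean, on each of 12 arrays by group and replicate number; black dashes are the median over all genes. On number 1 the sterol median is 0.70 in shSix4 cells with empty vector and 0.38 with MyoD, and on numbers 2 and 3 of both groups it lies below 0.

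Replicate number moved more members than any group comparison. The F test for number, in a fit that holds group and number, called 21 of 32 members or 65.6%, beside 7038 genes or 57.2% of all, so the share is close to the background. It called 11 of 17 sterol enzymes, 2 of 6 control genes and 8 of 9 fatty acid genes. The directions differed between arms. Numbers 2 and 3 were both below number 1 for 9 sterol enzymes (Acat2, Mvk, Pmvk, Mvd, Fdps, Fdft1, Lss, Tm7sf2 and Ebp) and 3 fatty acid genes (Acaca, Fads1 and Fads2), against 31.5% of all genes. They were both above number 1 for Nsdhl, Scap, Stard4, Fasn, Acly, Acss2 and Elovl6, against 22.9%. Hsd17b7 and Scd1 lay above number 1 in 1 of the 2 and below in the other.

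The median difference of the sterol arm was -0.40 for number 2 and -0.74 for number 3 against number 1. For the fatty acid arm it was 0.25 and 0.31, and for all genes -0.10 and -0.084. The arms thus differed by -1.05 in the contrast of number 3 with number 1. The 10 proliferation markers were all lower on numbers 2 and 3, with medians of -1.13 and -1.10. Averaged per array in the order of numbers, they stood at 3.10, 2.35 and 2.32 in the shLuc line without MyoD and at 2.86, 2.73 and 2.72 with it. The shSix4 line stood at 3.06, 0.87 and 0.82 without MyoD and at 3.04, 1.48 and 1.54 with it. Fibroblast markers had a median of 0.53 for number 2 and 0.34 for number 3. For the skeletal muscle markers it was -0.78 and -0.48, with 8 of 10 below 0 in each contrast. The part of these lists in the differences by number was not tested.

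Lss had the largest F among sterol genes. Over the groups in the order shLuc empty vector, shLuc MyoD, shSix4 empty vector and shSix4 MyoD it measured 1.12, 1.80, 1.89 and 1.75 on number 1, and on the other 8 arrays from -0.07 to 0.58. The difference was -1.49 for either number (adjusted p = 0.000137). Mvk, mevalonate kinase, measured 2.12, 2.14, 2.56 and 2.14 on number 1 and 0.75, 1.02, 0.59 and 0.93 on number 2, a difference of -1.42 and -1.36 (adjusted p = 0.000233). No array of numbers 2 and 3 reached an array of number 1 in these genes.

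Fdps measured 4.29, 4.62, 4.96 and 4.87 on number 1 and 3.03 to 4.27 on the others (-1.12 and -1.04, adjusted p = 0.00174). Mvd measured 1.69, 2.62, 2.40 and 2.54 on number 1 and 0.62 to 1.78 on the others (-0.89 and -1.29, adjusted p = 0.00313). The arrays of number 1 lay just above all others in Fdps and overlapped them in Mvd, while within each group number 1 was the highest in both genes. Fdft1 differed by -0.93 and -0.88 (adjusted p = 0.000718), Ebp by -0.62 and -0.97 (0.00397), Pmvk by -0.57 and -0.74 (0.00715) and Tm7sf2 by -0.24 and -0.48 (0.0482). Acat2 differed by -0.24 and -0.88 (0.000705). Number 1 was the highest in all 4 groups for 8 members, Mvk, Pmvk, Mvd, Fdps, Fdft1, Lss, Ebp and Fads2, against 26.2% of all genes.

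In the same order of groups, Ebp measured 5.26, 4.98, 5.48 and 5.17 on number 1 and 3.88 to 5.18 on the others. Pmvk stood at 3.72, 3.61, 4.02 and 3.58 on number 1 and 2.62 to 3.56 on the others. Acat2 was at -1.05, -1.17, -0.67 and -1.17 on number 1 and -2.15 to -1.06 on the others. Number 1 lay above all other arrays in Pmvk, while in Ebp and Acat2 the numbers overlapped. Tm7sf2 measured 3.92, 3.31, 4.22 and 3.61 on number 1 and 3.05 to 3.88 on the others. Hsd17b7 lay at 2.00, 2.01, 2.03 and 1.15 on number 1 and 1.14 to 2.43 on the others. Neither showed number 1 apart.

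Nsdhl ran against its arm. It measured 1.42, 1.82, 1.76 and 1.91 on number 1, 1.96, 2.43, 2.26 and 2.04 on number 2 and 2.46, 2.67, 2.39 and 2.58 on number 3. All arrays of numbers 2 and 3 lay above those of number 1, and the differences were 0.45 and 0.80 (adjusted p = 0.00131). Its other probes gave -0.071 and 0.41 and -0.022 and 0.23, so number 2 did not stand apart on them. Dhcr7, which was called for MyoD, differed by 0.042 and 0.054 between numbers (adjusted p = 0.925). Hmgcs1, Sqle, Cyp51, Msmo1 and Sc5d were not called for number either, with adjusted p from 0.0551 to 0.609. Hsd17b7 differed by 0.48 and -0.16 (adjusted p = 0.0202).

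In the fatty acid arm Fads2, the desaturase beside Fads1, measured 1.82, 1.69, 2.10 and 2.09 on number 1 and 0.87 to 1.40 on the others. It had the largest F of its arm, with differences of -0.82 and -0.76 (adjusted p = 0.00299). Elovl6 went the other way, at 2.05, 2.02, 2.59 and 2.35 on number 1 and 2.52 to 3.09 on the others (0.59 and 0.54, adjusted p = 0.00374). Acly, which splits citrate into acetyl-CoA, measured 0.19, 0.13, 0.40 and 0.11 on number 1 and 0.54 to 1.05 on the others (0.57 and 0.53, adjusted p = 0.00772). Within each group both genes were lowest on number 1.

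Fasn differed by 0.41 and 0.39 (adjusted p = 0.0405, with 11 arrays), Acss2 by 0.25 and 0.31 (0.0415), Fads1 by -0.55 and -0.27 (0.0354), Acaca by -0.62 and -0.25 (0.0371) and Scd1 by -0.094 and 0.48 (0.0127). The calls of Fasn and Fads1, like that of Tm7sf2, were lost in 12 of 18 alternatives each, and that of Acss2 in 14 of 19. Acaca lost its call in 9 of 18 and changed sign in 1 more. Scap differed by 0.46 and 0.25 (0.0153). Number 1 was the lowest in all 4 groups for 6 members, Nsdhl, Scap, Fasn, Acly, Acss2 and Elovl6, against 19.6% of all genes. Without the 4 arrays of number 1, an alternative added after seeing the data, the contrast of number 3 with number 2 called 0 members and 2 genes in all (0.0163%). MyoD in shLuc cells then called 3 members, Fdft1, Fdps and Lss, and 8.13% of all genes.

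Fasn measured 5.61, 5.80, 6.02 and 6.05 on number 1 and 5.97 to 6.53 on the others. Acss2 stood at -0.62, -0.29, -0.40 and -0.57 on number 1 and -0.46 to -0.03 on the others. Scap lay at 4.31, 4.01, 4.52 and 4.47 on number 1 and 4.33 to 4.99 on the others. These were low on number 1 within every group. Acaca measured -0.28, -0.38, 0.09 and -0.05 on number 1 and -1.42 to -0.30 on the others. Fads1 stood at 2.22, 1.67, 2.32 and 1.94 on number 1 and 1.24 to 1.88 on the others. Scd1 lay at 1.37, 1.39, 1.82 and 1.46 on number 1 and 1.23 to 2.18 on the others. Here the arrays of number 1 overlapped the others. Stard4, on its brightest probe, measured 0.78, 0.82, 1.07 and 0.18 on number 1 and 0.64 to 2.97 on the others.

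**Figure D4:**
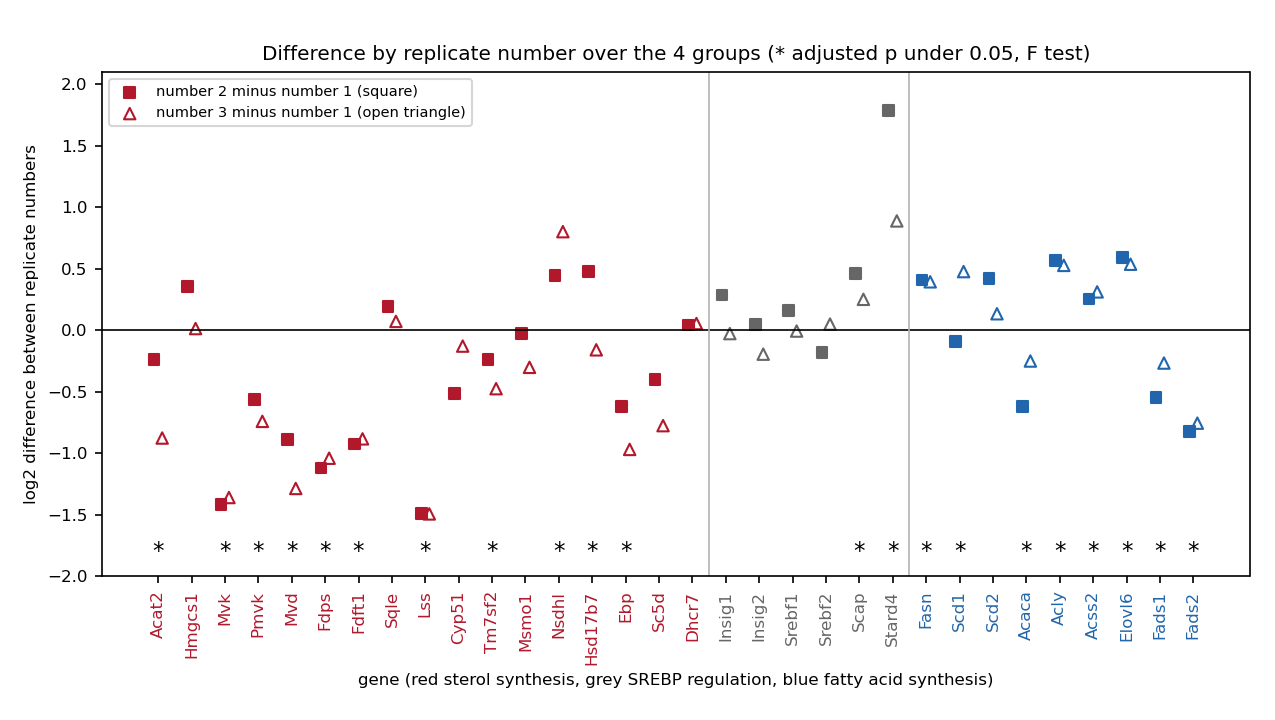
Log2 difference of replicate numbers 2 (filled squares) and 3 (open triangles) from number 1, from the fit with group and number, for each of 32 genes; asterisks mark an adjusted p under 0.05 in the F test. Most sterol genes lie below 0, down to -1.49 for Lss, and Fasn, Acly, Acss2 and Elovl6 lie above 0.

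Other probes of the same gene gave a check on single values. For the MyoD response in shLuc cells the probes ran the same way in Dhcr7 (0.67 and 0.82), Fdft1 (0.85 and 1.07), Lss (0.65 and 0.80), Srebf2 (0.48 and 0.99), Cyp51 (0.64, 0.69 and 0.43) and Nsdhl (0.36, 0.40 and 0.43). They differed in sign in Mvk (0.15 and -0.0041), and in Hmgcs1 the dimmer probe gave less (0.36 and 0.070). The second probes of Fdft1 and Srebf2 were dim, at mean levels of -3.96 and -4.02 against 2.83 and 1.26. In shSix4 cells the Fdft1 probes gave 0.16 and -0.30. For replicate number the probes of Lss (-1.49 and -1.50 for number 2), Mvk (-1.42 and -1.34) and Pmvk (-0.57 and -0.72) also ran together.

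Probes of a gene differed in sign for number 2 or number 3 in Stard4, Acaca, Fdft1, Acss2, Hsd17b7 and Nsdhl, which were called for number, and in Hmgcs1, Insig1, Insig2, Cyp51 and Dhcr7, which were not. The brightest probe of Stard4, which stands for the gene here, was higher on numbers 2 and 3 by 1.79 and 0.89 (adjusted p = 0.00218), while its other probes were lower, by -0.84 and -0.75 and by -1.01 and -0.64. The same fit on the authors' deposited table gave -0.75 for number 3 in this gene. That table holds only part of the probes, and the probe behind this value was not traced. The brightest probe of Insig1 differed by 0.28 and -0.028 and the dimmer one by -1.04 and -0.92. Hmgcs1 had 0.36 and 0.013 on the brightest and -0.91 and -0.55 on the dimmer probe. Acaca had 4 probes with differences for number 3 of -0.25, 0.64, -0.38 and 0.0047. For number 3 Fdft1 had -0.88 on the brightest and 0.29 on the dimmer probe. For number 2 Acss2 had 0.25 and -0.30, and Hsd17b7 had 0.48 and -0.20. The direction by number is therefore not settled where the probes differ, and the mean over probes gave -0.16 for Stard4 and 0.0041 for Acaca in number 3.

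**Figure D5:**
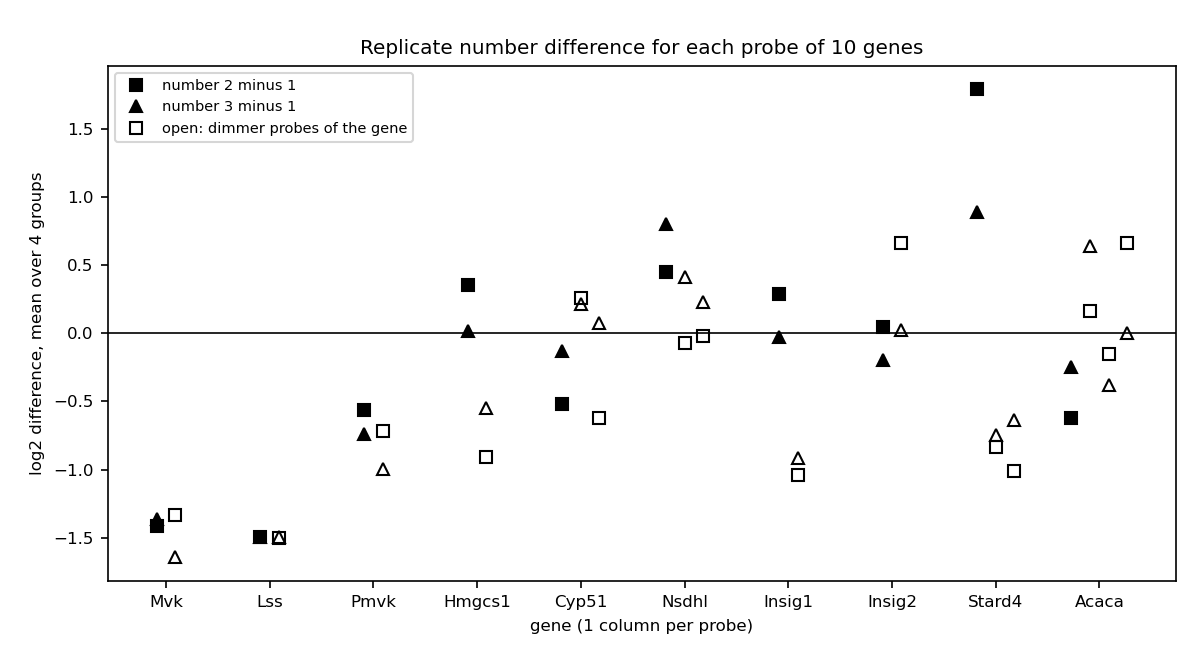
Log2 difference of replicate numbers 2 (squares) and 3 (triangles) from number 1, as the mean over 4 groups, for each probe of 10 genes with more than 1 probe; filled symbols are the brightest probe, open symbols the dimmer ones. Lss and Mvk probes fall together, and the filled symbols of Stard4 lie above 0 while its open ones lie below.

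Pairs of related genes did not always move alike. Srebf1, the SREBP of the fatty acid arm, differed by -0.099 ± 0.17 with MyoD in shLuc cells, where Srebf2 differed by 0.48 ± 0.17. Srebf1 measured 3.20, 3.28 and 2.92 with empty vector and 2.97, 3.10 and 3.03 with MyoD. Insig1 in shLuc cells measured -1.23, -0.07 and -1.26 with empty vector and -0.95, -0.57 and -0.80 with MyoD. Insig2 measured 2.24, 2.37 and 2.08 against 2.12, 2.04 and 1.94. Neither was called in any of the 6 tests. Number 2 of shLuc with empty vector stood alone in Insig1. That array had the lowest 75th percentile of log2 signal, 8.67 against 9.38 to 9.95 on the others. Its deviations followed those of the other number 2 arrays with r from 0.28 to 0.43 over all genes. Within number 2 the MyoD difference in shLuc cells was largest for Fdps (1.24) and Cyp51 (1.06) and smallest for Msmo1 (0.041) and Hmgcs1 (0.058). The part of this array in those values was not tested.

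The desaturases Scd1 and Scd2 add the first double bond to a fatty acid. Scd2 measured 5.95, 7.04 and 6.18 with empty vector and 6.34, 7.02 and 6.68 with MyoD in shLuc cells. In shSix4 cells it measured 6.20, 5.98 and 6.06 and then 5.87, 6.01 and 5.98. With MyoD every shSix4 array lay below every shLuc array, by -0.73 ± 0.27 (adjusted p = 0.463), while Scd1 differed by 0.13 ± 0.28. Fads1 and Fads2 differed by -0.013 ± 0.27 and -0.082 ± 0.37 in that comparison.

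Neighbouring pathways were followed in lists chosen beside the members. None of 5 other sterol enzymes was called in any group comparison. Among them Ggps1, which makes geranylgeranyl diphosphate from the same precursor as squalene, was called for replicate number and was lower on numbers 2 and 3, by -0.63 and -0.83 (adjusted p = 0.0025). Of 12 genes of sterol uptake and SREBP processing none was called in a group comparison.

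Of 7 measured genes of the LXR and cholesterol export list none was called between groups, although the block called Nr1h3, an LXR receptor, lower with MyoD in shLuc cells (-0.74 ± 0.27, adjusted p = 0.149, block 0.0491). By replicate number the exporter Abca1 was higher on numbers 2 and 3 by 2.29 and 2.47. Apoe, a lipoprotein of cholesterol transport, was higher by 1.63 and 1.46. Of the 5 genes of that list called for number, 3 were higher on numbers 2 and 3, with Osbp as the other, and 2 were lower, Soat1 by -0.70 and -0.99 and Nr1h2 by -0.37 and -0.53. Of all genes 57.2% were called for number. Numbers 2 and 3 were both above number 1 in 22.9% of all genes and both below in 31.5%.

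Among 20 measured genes of fatty acid elongation, activation and glycerolipid synthesis, MyoD in shLuc cells raised Acsl1 by 1.00 ± 0.20, Acsl3 by 1.73 ± 0.19 and Acsl4 by 1.65 ± 0.31, which attach coenzyme A to long-chain fatty acids. It lowered the elongase Elovl7 by -1.32 ± 0.24 (adjusted p from 0.000166 to 0.0114 for the 4 genes). In shSix4 cells Acsl3 rose by 1.13 ± 0.19 (adjusted p = 0.00622) and Acsl4 by 1.46 ± 0.31 (0.0256). With the block MyoD in shLuc cells also called Lpin2 higher (block 0.0099) and Slc25a1 lower (0.0274), MyoD in shSix4 cells Elovl7 lower (0.0329), and shSix4 against shLuc with MyoD Elovl4 (0.0391) and Elovl7 (0.0292) higher. Me1, malic enzyme, which makes NADPH for fatty acid synthesis, differed between shSix4 and shLuc by -1.77 ± 0.18 without MyoD (adjusted p = 0.0054) and by -1.64 ± 0.18 with it (0.0119). Of 15 measured fatty acid oxidation genes MyoD in shLuc cells lowered Acadm, a medium-chain dehydrogenase, by -0.62 ± 0.15 (adjusted p = 0.0325). No gene of that list was called in the other group comparisons, although the block called Decr1 lower with MyoD in shSix4 cells (-0.43 ± 0.33, block 0.0467).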

How the data were processed

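Cy3 intensity of each spot came from 12 single-colour Agilent arrays, extracted by the authors with Feature Extraction 11.5.1.1 per the file headers (the submitters' processing notes give 10.5.1.1). The processed signal is corrected for background within each array and not normalized between arrays. A second source was the authors' table of normalized log2 values, which here holds 3867 of the probes, 2696 genes and 4 members. It followed log2 of each array's own processed signal and served as an alternative. Its label reads quantile, with no further account of the normalization in the sources here, and its array medians ran from 8.66 to 8.72.

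Spots marked as controls or outliers were dropped, spots of a probe were averaged, and each array's 75th percentile was subtracted from log2 of the processed signal. Of 41174 probes 24000 were kept, those well above background throughout 1 group or more (3 of 3 arrays). The brightest named probe stood for a gene. Names came through RefSeq accessions (GRCm38.p6), and promoter windows from RefSeq of the same build. The arrays' grid was built on an older assembly, and no probe position is given. Groups came from sample titles. The description field contradicts the other labels and was not used.

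limma 3.58.1 in R 4.3.3 was fitted with a mean per group over 12 arrays (8 residual degrees of freedom), and for replicate number with group and number, with Benjamini-Hochberg adjustment at 0.05. Arm medians are descriptions with no test. The fitting code was tested on simulated data. Figures were drawn with matplotlib 3.10.9. No spot was saturated, and the number of arrays limits the precision.

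Arrays of the same number deviated together from their group means (r from 0.28 to 0.82 over all genes in 18 pairs, and from -0.73 to 0.50 in the 36 pairs of different numbers), and the file headers put each number on 1 slide. The numbers were therefore taken to pair the samples, and the blocked value stands beside a result where it changes the call. The main fit does not use this pairing. Its standard errors, which are those given for the group comparisons, therefore also carry the spread between numbers.

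Members and lists were chosen with earlier results of these data known. Genes were named with their array values where they passed the threshold in any of 6 tests, or were highest or lowest of their arm in a group comparison or had its highest F for number. Pairs of related genes were set side by side. In other lists the genes past the threshold were named. The other genes named (such as Abca1, Apoe and Ggps1) were chosen after their values were seen. Alternatives were background correction, normalization, the filter on dim probes, the probe rule, outlier marks, the replicate block, each array left out and the authors' table. The background alternative used normexp with offset 50 on the median signal, in place of the mean signal planned. Some genes of the neighbouring lists are not reported here.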

Additional observations from a re-analysis of the deposited data

Results flagged for a closer look

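Acss2, which makes acetyl-CoA from acetate, had MyoD differences above 0 within all 3 replicate numbers in shLuc cells (0.33, 0.17 and 0.28) and below 0 within all 3 in shSix4 cells (-0.17, -0.28 and -0.07), so that the responses differed by 0.43 on the log2 scale. The same arrays read the other way give the difference of the lines with MyoD against that with empty vector, which was -0.43. The interaction was tested with limma and did not pass the threshold (-0.43 ± 0.26, unadjusted p = 0.125, adjusted p = 0.9999). The dimmer probe of the gene had a MyoD difference of 0.22 in shLuc and -0.16 in shSix4 cells.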

How the results depend on the processing

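The single call for MyoD in shLuc cells (1 member, 772 genes) became 0 with normexp (86 genes), with probes well above background on all arrays (457 genes), with no filter (617 genes) and in the authors' table (0 of 4 members, 146 of 2696 genes). It became 6 with the replicate block (3153 genes) and 3 without replicate number 1 (1000 genes). With 1 array left out it ranged from 0 to 1. Dhcr7 itself passed in 5 of 20 alternatives, with values from 0.56 to 0.89 and adjusted p from 0.0129 to 0.619. It was lost without any array but number 2 of shLuc with empty vector, the losses including arrays of shSix4 cells that enter only the shared spread. The comparison of lines with MyoD called 0 members and 1 with the block. Counts for MyoD in shSix4 cells, for the lines with empty vector and for the interaction stayed at 0 under all alternatives run, with the block among them.

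The count for replicate number (21) was 8 with normexp (2434 genes against 7038), 2 of 4 members in the authors' table and 0 without number 1. With 1 array left out it ranged from 15 to 20. Stard4 changed sign for number 3, from 0.89 to -0.16 with the mean over probes and -0.75 in the authors' table, and Acaca from -0.25 to 0.0041 with the mean over probes. The mean over probes takes in the dimmer probes, which ran the other way in Stard4 and were mixed in Acaca. The authors' table holds only part of the probes, and 1 of the dimmer Stard4 probes here also gave -0.75. Whether the table's value rests on that probe was not traced.

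Sterol minus fatty acid medians moved most for number 3 against 1, from -1.05 to -0.84 with normexp, -0.72 with the mean over probes and -0.76 in the authors' table, and ranged from -1.12 to -0.92 with 1 array left out. For the lines with empty vector the value went from -0.079 to 0.22 with normexp, and from -0.35 to 0.032 with 1 array left out. For MyoD in shLuc cells it went from 0.22 to -0.075 in the authors' table, which holds 3 genes of these arms, and from 0.054 to 0.26 with 1 array left out. With 1 array left out it ranged from -0.21 to 0.22 for MyoD in shSix4 cells (0.059) and from -0.52 to 0.020 for the lines with MyoD (-0.29). The sterol median for MyoD in shLuc cells (0.36) was 0.48 with normexp, 0.42 with quantile normalization and 0.34 with the mean over probes, and ranged from 0.24 to 0.41 with 1 array of these groups left out. The filters did not change the probes it rests on. Where not stated, the cause was not tested.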
